A study of Mus musculus with 18 samples.

Results

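The liver breaks down fatty acids in mitochondria and in peroxisomes, and 38 genes of these pathways were followed by their symbols in liver RNA of 18 mice. They were 17 genes of the carnitine shuttle and of mitochondrial β-oxidation, 15 genes of peroxisomes and 6 genes whose enzymes work in both organelles or whose place is uncertain, out of 25266 genes listed by symbol for each mouse. The members are defined by their function, but they were chosen with earlier results of these data known. Every mouse was male and carried Ppp6r3 fl/fl, the floxed gene of SAPS3, a subunit of protein phosphatase 6. FF mice had this allele alone, and LKO mice also had Alb-Cre, a Cre recombinase under the promoter of albumin, a hepatocyte gene, so that Ppp6r3 remains intact in the other cells of the liver. From 8 weeks of age the mice were given for 16 weeks either the control diet (CD), with 10% of its calories as fat, or the high fat diet (HFD), with 32.5%. There were 4 FF CD, 4 LKO CD, 5 FF HFD and 5 LKO HFD mice, each a separate animal. The floxed mice and the Alb-Cre mice were both C57BL/6. No mice with Alb-Cre but without the floxed allele were among the samples. Cre itself and the loss of Ppp6r3 therefore cannot be told apart.

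Long-chain fatty acids are first joined to coenzyme A (CoA). To enter mitochondria they are handed to carnitine by Cpt1a, carried across the inner membrane by Slc25a20 and handed back to CoA by Cpt2, and each turn of the β-oxidation spiral then removes a pair of carbons and passes electrons to the respiratory chain. Peroxisomes take in very long-chain, branched and dicarboxylic acyl-CoAs through ABC transporters, shorten them with their own set of oxidases, bifunctional enzymes and thiolases, and pass the products on as carnitine esters. In the liver many genes of both spirals are known targets of PPARα, a nuclear receptor that binds fatty acids.

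Values are RPKM, the reads of a gene scaled to its length and to the reads of the library, so that levels of different genes may be compared. The libraries held 23.4 to 37.0 M reads, and the member with the fewest reads in a mouse, Abcd2, had about 203. All 38 members were among the 11090 genes with a mean of at least 0.5 RPKM, which were tested. The floxed gene checked the labels, since Ppp6r3 was 9.34 ± 1.14 RPKM in FF CD (SD, n = 4) and 8.23 ± 0.467 in FF HFD mice (SD, n = 5), against 3.99 ± 0.0822 in LKO CD (SD, n = 4) and 4.60 ± 0.271 in LKO HFD mice (SD, n = 5), with every LKO mouse below every FF mouse. The hepatocyte marker albumin (Alb) was 21300 to 37000 RPKM in every mouse. Markers of several cell types moved with diet in FF mice. Of 7 hepatocyte markers 4 were called lower on HFD (by the test described with the diet comparison), with a summed level of 34500 to 42700 RPKM in FF CD, 41200 to 52600 in LKO CD, 36500 to 46400 in FF HFD and 40100 to 47400 in LKO HFD mice, and 2 were called higher in LKO than in FF mice on HFD. Of 7 Kupffer cell markers 2 were called higher on HFD in FF mice, against 1 in LKO mice, and their sum was 42.7 to 61.3 RPKM in FF CD, 36.7 to 59.5 in LKO CD, 52.2 to 104 in FF HFD and 51.8 to 99.1 in LKO HFD mice. Of 6 endothelial markers 4 were called higher on HFD in FF mice but none in LKO mice, where 4 had an unadjusted p under 0.05, and their sum was 13.6 to 29.6, 10.9 to 31.7, 37.0 to 60.2 and 28.3 to 39.5 RPKM in the same order of groups. Of 5 tested stellate cell markers 1 was called higher on HFD in FF mice, 1 was called lower in LKO than in FF mice on HFD (-1.15) and 1 was called negative in the interaction (-1.51). Over all 11090 tested genes, 567 were called higher and 165 lower on HFD in FF mice. In LKO mice 107 were called higher on HFD, and 2475 had an unadjusted p under 0.05. Between genotypes on HFD 100 were called higher and 130 lower in LKO mice, and 166 were called negative in the interaction. The sum of 5 adipocyte markers did not exceed 2.45 RPKM in any mouse. Of the adipocyte markers Adipoq, Plin1, Retn and Lep were at 0 in all FF CD mice, Adipoq, Plin1 and Lep in all LKO CD mice and Lep in all LKO HFD mice, while no marker of the other 6 lists was at 0 in every mouse of a group. In whole liver, fewer cells of a type and less RNA per cell cannot be told apart, and the part of these cells in the results that follow was not tested.

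The members covered a wide range of levels. The highest were Scp2, which encodes a peroxisomal thiolase and a sterol carrier protein from the same gene, with a mean of 1398 RPKM over the 18 mice, and Phyh, the first enzyme of phytanic acid α-oxidation, with 1042 RPKM. Next came the peroxisomal thiolase Acaa1b with 477 and the mitochondrial thiolase Acaa2 with 387 RPKM, and then Acsl1, the acyl-CoA synthetase that activates long-chain fatty acids, with 254 RPKM. The lowest were Acox3, an oxidase of branched acyl-CoAs, with 4.68 RPKM and Abcd2, a peroxisomal acyl-CoA transporter, with 5.66 RPKM. All other mitochondrial members lay between 43.3 RPKM (Cpt2) and 181 RPKM (Etfa, a subunit of the electron transfer flavoprotein). Together the 38 genes took 1.53% ± 0.0685 (SD, n = 4) of the summed RPKM in FF CD, 1.79% ± 0.119 (SD, n = 4) in LKO CD, 2.09% ± 0.0831 (SD, n = 5) in FF HFD and 1.86% ± 0.141 (SD, n = 5) in LKO HFD mice. The lowest share on HFD in FF mice, 2.0%, was above the highest in LKO CD mice, 1.9%, and the lowest of these, 1.68%, was above the highest in FF CD mice, 1.58%, while the LKO HFD mice overlapped both the LKO CD and the FF HFD mice. The spread between mice of the same group was larger for the members than for most genes, with a median SD on the log2 scale of 0.204 against 0.163 over all genes tested. Echs1, a hydratase, varied most among the mitochondrial members (0.329), and Abcd2 most among the peroxisomal ones (0.39). The steadiest was Acox2, the oxidase of bile acid precursors, with 0.0906.

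To find how the diet altered these genes in mice with intact Ppp6r3, FF HFD mice were compared with FF CD mice. Of the 38 members 19 were called higher and none lower, where called means a fold change above 1.5 and an adjusted p below 0.05 in limma's two-sided test, adjusted by Benjamini-Hochberg over every tested gene. Of all tested genes 6.60% were called, and 5.11% of all tested genes were called higher. By the adjusted p alone 23 members were higher, against 15.8% of all genes, and Phyh alone was lower. The difference was above 0 for 36 members (63.2% of all genes), and 22 members were higher in every FF HFD mouse than in every FF CD mouse (14.0% of all genes). The median log2 difference was 0.58 over the members and 0.071 over all genes tested.

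In the mitochondrial pathway, 9 of 17 members rose in FF mice on HFD, all 3 genes of the carnitine shuttle among them. Cpt1a, which sets the pace of entry into mitochondria, was 99.5, 87.1, 81.6 and 108 RPKM in FF CD mice 1 to 4 and 138, 154, 155, 173 and 134 RPKM in FF HFD mice 1 to 5. Its groups did not overlap, and the log2 difference was 0.68 (standard error 0.12, adjusted p = 0.000908 by limma; exact permutation test over mice, p = 0.0159, the smallest that 5 against 4 mice allow). Slc25a20, the carnitine carrier, rose from 41.0 ± 6.63 (SD, n = 4) to 71.0 ± 8.86 RPKM (SD, n = 5), a log2 difference of 0.78 (standard error 0.12, adjusted p = 0.000261 by limma). Cpt2 rose from 31.3 ± 4.03 (SD, n = 4) to 51.7 ± 7.27 RPKM (SD, n = 5), by 0.71 on the log2 scale (standard error 0.12, adjusted p = 0.000479 by limma).

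Of the acyl-CoA dehydrogenases, which open each turn of the spiral on chains of different length, only the medium-chain enzyme Acadm was called. It was 106, 99.7, 91.2 and 89.8 RPKM in FF CD mice and 195, 223, 159.8, 179 and 162 RPKM in FF HFD mice 1 to 5, so that the groups stood well apart. The log2 difference was 0.91 (standard error 0.11, adjusted p = 3.95e-05 by limma). The long-chain enzyme Acadl passed the adjusted p (0.000465 by limma) with a log2 difference of 0.56, under the fold of 1.5. The very long-chain enzyme Acadvl and the short-chain enzyme Acads had differences of 0.22 and 0.29 and did not pass (adjusted p = 0.264 and 0.276 by limma).

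Further along the mitochondrial spiral the members split. Hadh, the short-chain hydroxyacyl-CoA dehydrogenase, rose from 129, 132, 105 and 123 RPKM in FF CD mice to 239, 245, 206, 199 and 219.7 RPKM in FF HFD mice, by 0.85 on the log2 scale (standard error 0.11, adjusted p = 5.75e-05 by limma). The subunits of the trifunctional protein, Hadha and Hadhb, sit head to head on chromosome 5 (mm10, Hadha on the minus strand from 30118304 to 30155162, Hadhb on the plus strand from 30155248 to 30184593) and moved by similar amounts. Hadhb was called at 0.60 (adjusted p = 0.00969 by limma) and Hadha was not at 0.56 (adjusted p = 0.00209 by limma), each of them close to the fold of 1.5. The FF groups overlapped for Hadhb, with 86.4 RPKM in FF CD mouse 1 and 79.6 RPKM in FF HFD mouse 3, but not for Hadha. Eci1 and Decr1, which handle the double bonds of unsaturated acids, both rose, by 0.81 (adjusted p = 0.00186) and by 0.72 (adjusted p = 0.00119 by limma). Etfdh, the oxidoreductase that passes electrons to ubiquinone, also rose, by 0.66 (adjusted p = 0.000747 by limma). Its upstream carriers Etfa and Etfb, with 0.13 and 0.076, were not called, and neither were Echs1 with 0.18 and Acaa2, the last enzyme of the spiral, with 0.085 (adjusted p from 0.525 to 0.75 by limma). Calls close to the fold threshold moved when a mouse was left out. Hadhb lost its call without FF CD mouse 3 or 4 or FF HFD mouse 1 or 2 (0.49 to 0.57), Etfdh without FF CD mouse 3 (0.57), while Hadha was called without FF CD mouse 1 or 2 or FF HFD mouse 5 (0.60 to 0.65) and Acadl without FF CD mouse 1 or FF HFD mouse 5 (both 0.59).

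In the peroxisome 6 of 15 members rose in FF mice on HFD, some by more than any mitochondrial member. Pex11a, which promotes the division of peroxisomes, lies at chr7:79735957-79743131 of mm10 and changed most. It was 31.7, 33.3, 21.1 and 27.6 RPKM in FF CD mice 1 to 4, and 82.4, 126, 98.0, 105 and 107 RPKM in FF HFD mice 1 to 5. The lowest HFD mouse was therefore far above the highest CD mouse, and the log2 difference was 1.84 (standard error 0.18, adjusted p = 3.98e-06 by limma).

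Acaa1b, a peroxisomal thiolase at chr9:119148023-119157093, was 285, 316, 179 and 199 RPKM in FF CD mice and 812, 808, 451, 547 and 672 RPKM in FF HFD mice. The groups did not overlap despite a wide spread, and the log2 difference was 1.43 (standard error 0.24, adjusted p = 0.000503 by limma). Its close relative Acaa1a, on the same chromosome, was 37.2 ± 5.61 (SD, n = 4) and 54.1 ± 14.9 RPKM (SD, n = 5) and was not called (0.49, adjusted p = 0.135 by limma), except without FF HFD mouse 3 (0.66, adjusted p = 0.036 by limma). The coding sequences of the pair are nearly identical and how reads shared by both were counted is not given in the sources used here, so the split between them is uncertain.

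Ehhadh, the bifunctional enzyme of the peroxisomal spiral at chr16:21761287-21787807, was 55.6, 48.8, 42.4 and 43.5 RPKM in FF CD mice and 96.1, 126, 106, 113 and 106 RPKM in FF HFD mice. All FF HFD mice were above all FF CD mice, with a log2 difference of 1.19 (standard error 0.17, adjusted p = 0.000135 by limma). Hsd17b4, the second bifunctional enzyme, which also acts on branched chains and bile acid precursors, was 122, 127, 96.1 and 92.8 RPKM in FF CD mice against 196, 226, 190.4, 203 and 183 RPKM in FF HFD mice. Its difference was 0.87 (standard error 0.12, adjusted p = 8.75e-05 by limma). Abcd2, a transporter of very long-chain acyl-CoAs, stood at only 2.86, 1.70, 1.57 and 3.23 RPKM in FF CD mice and at 5.66, 9.23, 7.68, 5.12 and 6.18 RPKM in FF HFD mice, which again did not overlap. The difference was 1.23 (standard error 0.24, adjusted p = 0.0015 by limma), whereas Abcd3, the abundant transporter of the same family, was not called at 0.20 (adjusted p = 0.325 by limma).

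Crot, which makes the carnitine esters that leave peroxisomes, rose by 1.0 on the log2 scale, from 84.7 ± 23.1 (SD, n = 4) to 167 ± 22.9 RPKM (SD, n = 5) (adjusted p = 0.00177 by limma). Acox2 and Decr2, the peroxisomal dienoyl-CoA reductase, passed the adjusted p (0.000398 and 0.00937 by limma) at 0.47 and 0.57, under the fold of 1.5. Decr2 was called without FF CD mouse 1, 2 or 4 or FF HFD mouse 3 (0.60 to 0.64). Phyh moved the other way, with 1107 to 1252 RPKM in FF CD mice and 858 to 945 RPKM in FF HFD mice, and decreased by 0.38 (standard error 0.091, adjusted p = 0.00679 by limma), too little for a call. Scp2, Acox3, Nudt19, a hydrolase of CoA, and Hacl1, the lyase that follows Phyh, had differences from -0.035 to 0.29 and adjusted p of at least 0.325 (limma).

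Among the 6 genes of both organelles or of uncertain place, 4 rose in FF mice on HFD. Crat, which makes short carnitine esters in mitochondria and peroxisomes, was 8.99, 7.18, 3.04 and 4.23 RPKM in FF CD mice and 19.3, 28.6, 23.3, 19.7 and 15.1 RPKM in FF HFD mice. The groups were far apart for a gene of such low level, with a log2 difference of 1.75 (standard error 0.24, adjusted p = 9.46e-05 by limma). Ech1, a dienoyl-CoA isomerase, rose by 0.79, Acsl1 by 0.72 and the acyl-CoA dehydrogenase Acad11 by 0.59 (adjusted p from 0.00118 to 0.00153 by limma). Acad11 lost its call without FF CD mouse 3 or 4 or FF HFD mouse 2 or 4 (0.56 to 0.57). The isomerase Eci2 and the racemase Amacr, which prepares branched chains for oxidation, were not called at 0.35 and 0.0041 (adjusted p = 0.0812 and 0.983 by limma).

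**Figure D1:**
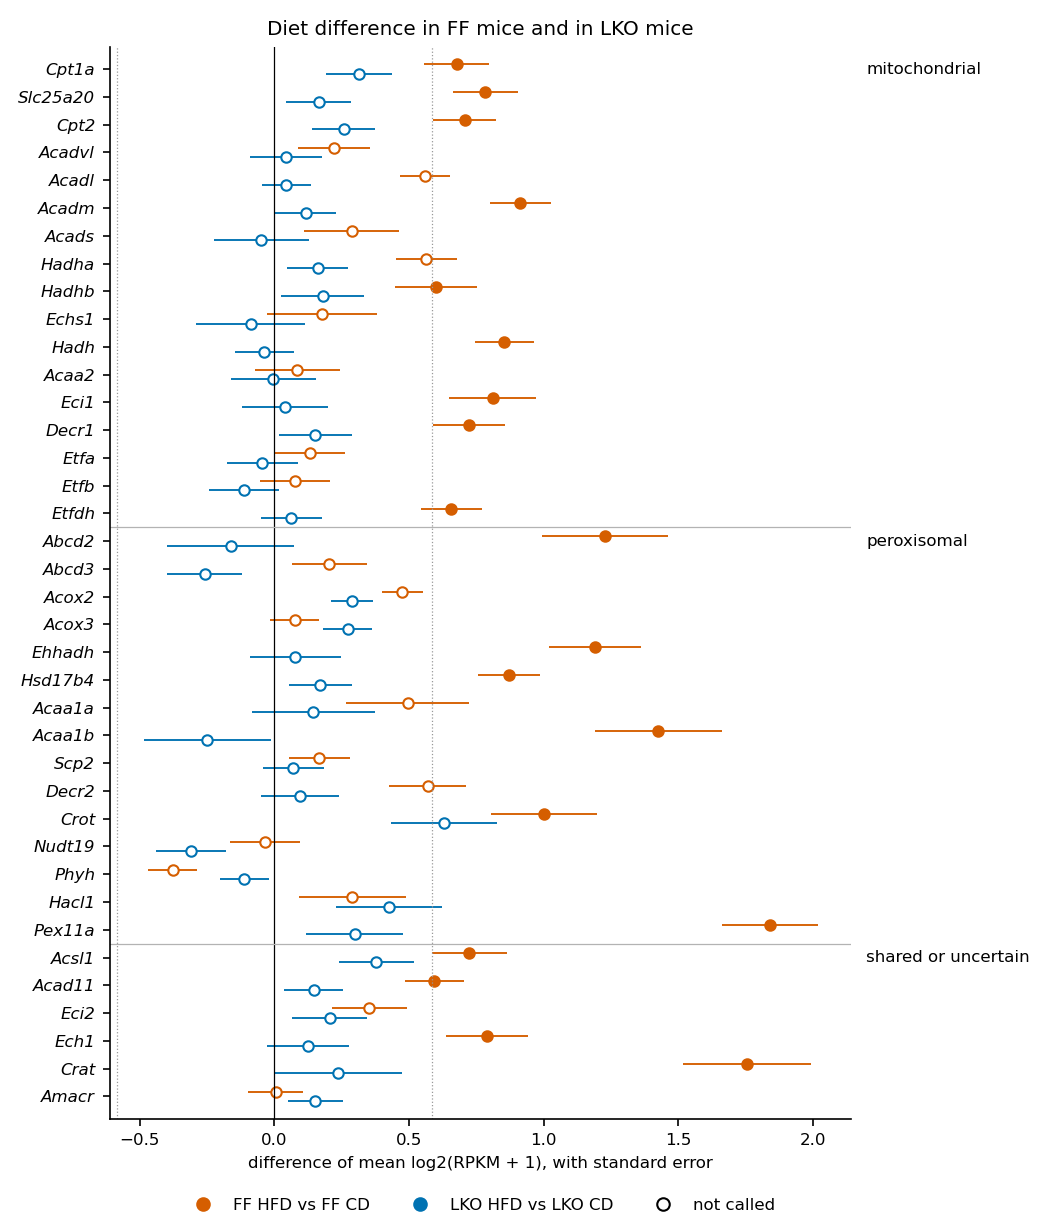
Difference of mean log2(RPKM + 1) between HFD and CD for each of the 38 members, in FF mice (orange) and LKO mice (blue). Bars are standard errors, filled points are called, dotted lines mark a fold of 1.5, and horizontal lines part the mitochondrial, peroxisomal and other members. In FF mice 19 points are filled and in LKO mice none.

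The same comparison in LKO mice gave a different picture. None of the 38 members was called between LKO HFD and LKO CD mice by limma, where 1.27% of all genes were, and 8 members had an unadjusted p under 0.05 (22.3% of all genes). Acox2 alone passed the adjusted p, as 4.05% of all genes did, with 38.1 ± 1.43 RPKM (SD, n = 4) on CD and 46.8 ± 1.92 (SD, n = 5) on HFD, a log2 difference of 0.29 (standard error 0.077, adjusted p = 0.0427 by limma), and with mice left out its adjusted p reached 0.129. Of the members 27 had a difference above 0 (65.8% of all genes), and the median was 0.12 against 0.067 over all genes tested. Acox2 and Acox3 were higher in every LKO HFD than in every LKO CD mouse, and no other member was (7.71% of all genes).

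The size of the remaining differences can be read from their intervals. Cpt1a was 106, 120.0, 89.7 and 123 RPKM in LKO CD mice 1 to 4 and 143, 133, 164, 124 and 119 RPKM in LKO HFD mice 1 to 5. These groups overlapped, with a log2 difference of 0.31 (95% interval 0.060 to 0.57, adjusted p = 0.138 by limma; exact permutation test, p = 0.0635). For Ehhadh the difference was 0.078 (95% interval -0.28 to 0.44, adjusted p = 0.828 by limma), and it turned to -0.083 without LKO CD mouse 3 and to -0.049 without LKO HFD mouse 4. The widest positive difference was that of Crot, from 121 ± 23.3 (SD, n = 4) to 191 ± 49.8 RPKM (SD, n = 5), at 0.63 (95% interval 0.22 to 1.04, adjusted p = 0.075 by limma), which was called once LKO HFD mouse 5 was left out (0.74, adjusted p = 0.0448 by limma). Acaa1b had an interval from -0.75 to 0.25 and Pex11a one from -0.078 to 0.67.

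To set the mitochondrial and the peroxisomal genes side by side, the mean log2(RPKM + 1) of each class was taken in every mouse, relative to the mean of the FF CD mice. For the mitochondrial members it was 0.28 ± 0.20 (SD, n = 4) in LKO CD, 0.52 ± 0.18 (SD, n = 5) in FF HFD and 0.35 ± 0.14 (SD, n = 5) in LKO HFD mice. For the peroxisomal members it was 0.41 ± 0.19 (SD, n = 4), 0.63 ± 0.14 (SD, n = 5) and 0.50 ± 0.16 (SD, n = 5). Both classes were thus lowest in FF CD and highest in FF HFD mice, with LKO CD and then LKO HFD between. The ranges of neighbouring groups in this order overlapped, except that the peroxisomal level of every LKO CD mouse (0.16 and above) was just above that of every FF CD mouse (up to 0.157). Within groups the classes went together. LKO CD mouse 3 and FF HFD mouse 3 were the lowest of their groups in both classes, at -0.010 and 0.23 for the mitochondrial and 0.16 and 0.42 for the peroxisomal members. The summed RPKM of all genes differed between mice, from 312000 to 398000. As a share of that sum, LKO CD mouse 3 was lowest for the mitochondrial members (0.502%). For the peroxisomal members LKO CD mouse 1 was lower (0.966% against 1.03%). FF HFD mouse 3 was lowest for the mitochondrial members (0.633%) and level with mouse 4 for the peroxisomal ones (1.14%). The part of this scale in the shared movement was not tested. The peroxisomal level minus the mitochondrial one was -0.072 to 0.053 in FF CD, 0.047 to 0.17 in LKO CD, 0.050 to 0.19 in FF HFD and 0.085 to 0.20 in LKO HFD mice. It therefore lay at or above 0.047 in all mice of the other 3 groups, while 1 FF CD mouse (0.053) reached into their range. The medians of the members did not all follow this order. Between FF HFD and FF CD mice the median log2 difference was 0.60 for the mitochondrial and 0.49 for the peroxisomal members. Between LKO CD and FF CD mice it was 0.265 and 0.359. The share of the summed RPKM was 0.479% in FF CD and 0.691% in FF HFD mice for the mitochondrial members, and 0.914% and 1.17% for the peroxisomal ones. The peroxisomal share rested largely on Scp2 and Phyh, neither of them called. They made up 38.9% and 34.2% of the peroxisomal RPKM in FF CD and 35.9% and 21.7% in FF HFD mice. Class levels were not tested, since members of a class are not replicates.

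**Figure D2:**
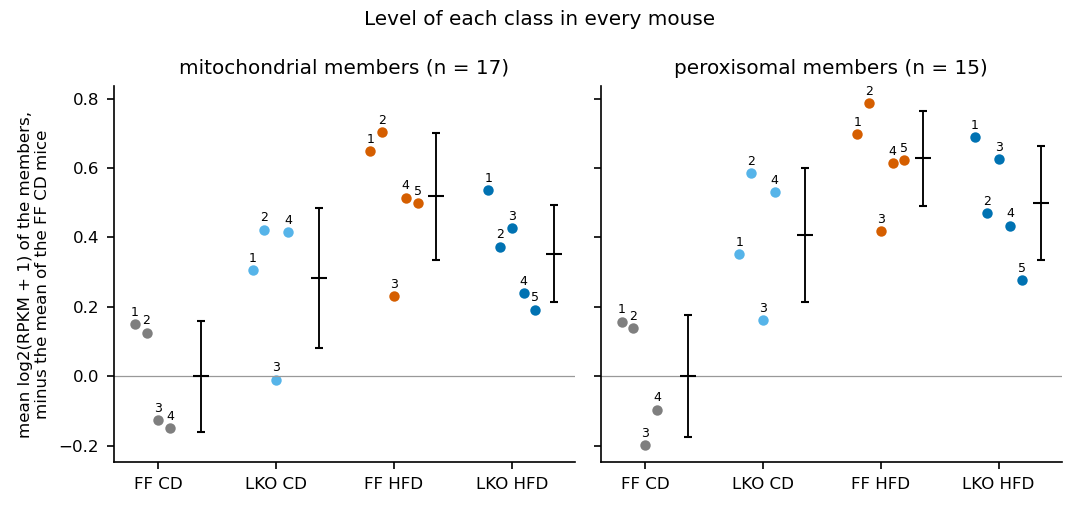
Mean log2(RPKM + 1) of the 17 mitochondrial (left) and 15 peroxisomal members (right) in each mouse, minus the mean of the FF CD mice, with the replicate number above each point and the group mean ± SD in black. FF HFD mice average 0.52 and 0.63, and mouse 3 is the lowest of LKO CD and of FF HFD in both panels.

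The order of the 4 group means was alike for most members. FF CD was the lowest group for 32 of the 38 (84.2%, against 41.8% of all genes tested) and FF HFD the highest for 27 (71.1%, against 31.6%). Among the mitochondrial members FF HFD was the highest for 15 of 17, and the exceptions Etfa and Etfb were highest in LKO CD. Among the peroxisomal members it was the highest for 8 of 15. LKO HFD mice had the highest mean for Acox2, Acox3, Crot and Hacl1, LKO CD mice for Abcd2 and Nudt19, and FF CD mice for Phyh.

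On CD, the comparison of genotypes asked whether loss of Ppp6r3 in hepatocytes altered these genes without a dietary challenge. Abcd2 was the only member called, and 0.225% of all genes were. LKO CD mice 1 to 4 had 6.55, 8.16, 4.96 and 7.59 RPKM, all above the 3.23 RPKM of the highest FF CD mouse. The log2 difference was 1.24 (standard error 0.25, adjusted p = 0.0397 by limma). This call was lost without any of FF CD mice 1, 2 and 3, LKO CD mice 1, 2 and 4, FF HFD mice 3 and 5 and LKO HFD mouse 3, each left out in turn, with differences of 1.13 to 1.32 and adjusted p of 0.0535 to 0.193 (limma).

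Short of a call, in LKO CD mice the means of 35 of 38 members were above those of FF CD mice (61.7% of all genes tested), all 17 mitochondrial ones among them, and the median difference was 0.30 against 0.035 over all genes. An unadjusted p under 0.05 was reached by 18 members (7.67% of all genes), and 11 members were higher in every LKO CD than in every FF CD mouse (3.37% of all genes). Of these 11, Cpt2, Acadl, Acadm, Hadh and Etfdh are mitochondrial, Abcd2, Acox2, Ehhadh, Acaa1b and Pex11a are peroxisomal, and Crat acts in both.

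Of these 11 members Abcd2 alone passed after adjustment. Crat was 11.2, 17.5, 9.66 and 15.6 RPKM in LKO CD mice (log2 difference 1.13, adjusted p = 0.0772 by limma), and Acaa1b was 482, 672, 338 and 623 RPKM (1.10, adjusted p = 0.0824 by limma). Ehhadh was 87.1, 99.0, 58.6 and 90.9 RPKM, with LKO CD mouse 3 just above the highest FF CD mouse (0.79, adjusted p = 0.0824 by limma). Acadm was 130.0, 161, 116 and 155 RPKM (0.53, adjusted p = 0.0824 by limma), Hadh was 163, 190.2, 137 and 181 RPKM (0.45, adjusted p = 0.14 by limma) and Pex11a was 36.5, 64.5, 34.5 and 52.9 RPKM (0.68, adjusted p = 0.176 by limma). Mouse 3 was the lowest LKO CD mouse for each of these genes. Without it 5 members were called, Abcd2, Acadm (0.61), Ehhadh (0.95), Acaa1b (1.30) and Crat (1.27), with adjusted p of 0.0239 to 0.0385 for the latter 4 (limma), and Ehhadh was also called without LKO HFD mouse 4 (0.79, adjusted p = 0.0405 by limma) and Crat without FF CD mouse 1 (1.34, adjusted p = 0.0251 by limma). Cpt1a was not called between genotypes on CD (0.22, 95% interval -0.051 to 0.48, adjusted p = 0.771 by limma; exact permutation test, p = 0.143). Hsd17b4, with 135, 159, 119 and 148 RPKM in LKO CD mice, overlapped the FF CD mice (0.36, adjusted p = 0.376 by limma).

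The genotypes were then compared on HFD. Pex11a was called lower in LKO HFD mice and no other member was called, with 2.07% of all genes called and 1.17% called lower. Pex11a was 69.2, 54.5, 60.9, 51.2 and 47.7 RPKM in LKO HFD mice 1 to 5, all below the 82.4 RPKM of the lowest FF HFD mouse. It decreased by 0.86 on the log2 scale (standard error 0.17, adjusted p = 0.00747 by limma), and with each mouse left out the adjusted p stayed at or below 0.0292. Hadh was 184, 175, 156, 144 and 156 RPKM, also below every FF HFD mouse, and passed the adjusted p (-0.44, standard error 0.10, adjusted p = 0.0229 by limma) but not the fold, while with mice left out the adjusted p reached 0.0719. Hsd17b4 was 173, 140.4, 175, 159 and 142 RPKM, again without overlap, and did not pass (-0.34, adjusted p = 0.0881 by limma). These 3 were the only members without overlap (2.02% of all genes were lower without overlap).

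Of the 38 members 10 were above 0 in this comparison (57.4% of all genes), and the median was -0.14 against 0.030 over all genes tested. The median of the peroxisomal members alone, also -0.14, was -0.0035 when LKO HFD mouse 4 was left out, -0.073 without mouse 5 of that group and -0.048 without FF HFD mouse 2. That of the mitochondrial members, -0.14 as well, was -0.077 when LKO HFD mouse 5 was left out. The carnitine shuttle lay between -0.31 (Slc25a20, adjusted p = 0.132 by limma) and -0.12 (Cpt2, adjusted p = 0.593 by limma), with Cpt1a at -0.15 (95% interval -0.39 to 0.093, adjusted p = 0.505 by limma; exact permutation test, p = 0.198). Acadm was 158, 144, 153, 159.8 and 140.3 RPKM in LKO HFD mice (-0.27, adjusted p = 0.168 by limma). Acaa1b was 652, 370.4, 429, 358 and 398 RPKM, with mouse 1 apart from the other 4 (-0.58, adjusted p = 0.165 by limma). Ehhadh was 92.3, 67.2, 94.2, 124 and 68.5 RPKM (-0.33, adjusted p = 0.274 by limma), Crat was 16.5, 14.3, 19.2, 17.4 and 11.9 RPKM (-0.39, adjusted p = 0.359 by limma), and Abcd2 was 8.69, 8.16, 7.15, 3.26 and 4.06 RPKM (-0.15, adjusted p = 0.756 by limma). The FF and LKO mice overlapped for all 5 of these genes. Neither α-oxidation enzyme passed, with Hacl1 at 57.0 ± 11.9 RPKM in FF HFD and 84.8 ± 19.4 in LKO HFD mice (SD, n = 5 each, log2 difference 0.57, adjusted p = 0.0969 by limma) and Phyh at 0.20 (adjusted p = 0.216 by limma).

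**Figure D3:**
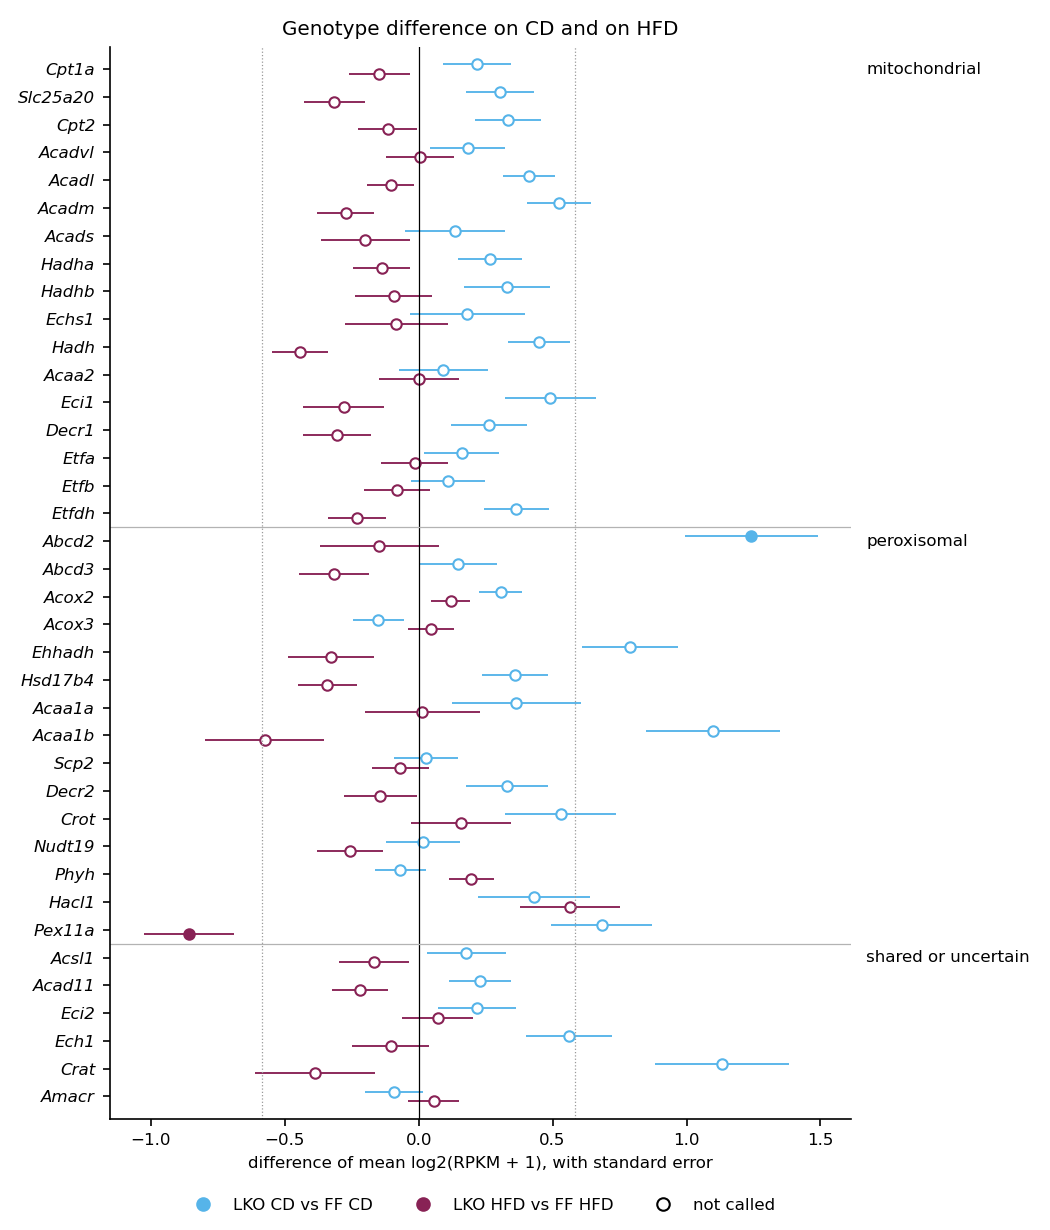
Difference of mean log2(RPKM + 1) between LKO and FF mice for each of the 38 members, on CD (light blue) and on HFD (purple). Bars are standard errors, filled points are called and dotted lines mark a fold of 1.5. On CD 35 points are above 0 and on HFD 10, and the filled points are Abcd2 on CD and Pex11a on HFD.

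Whether the genotypes responded differently to the diet was tested as the interaction, the HFD minus CD difference of LKO mice less that of FF mice. Of the 38 members 8 were called and all 8 were negative, a lower HFD minus CD difference in LKO than in FF mice. Of all genes 2.44% were called and 1.5% called negative. In LKO mice that difference was below 0 for Acaa1b (-0.25), Abcd2 (-0.16) and Hadh (-0.038) and above 0 for the others of the 8. The interaction was above 0 for 4 members, Phyh, Acox3, Amacr and Hacl1, against 48.7% of all genes, and the median was -0.41 against -0.0072 over all genes tested. The 8 were Acadm and Hadh of the mitochondrial members (2 of 17), Pex11a, Acaa1b, Abcd2, Ehhadh and Hsd17b4 of the peroxisomal ones (5 of 15), and Crat. The class medians were close, with -0.42 for the mitochondrial and -0.37 for the peroxisomal members, but the peroxisomal members were more spread, from -1.68 to 0.27 against -0.89 to -0.090.

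Pex11a had an interaction of -1.54 (standard error 0.25, adjusted p = 0.00218 by limma), since its means were 28.4 and 104 RPKM in FF mice on CD and HFD and 47.1 and 56.7 RPKM in LKO mice. For Acaa1b, with means of 245 and 658 RPKM in FF and 529 and 441 RPKM in LKO mice, it was -1.68 (standard error 0.34, adjusted p = 0.00968 by limma). For both genes, as for every other member called in the interaction, the LKO mean was above the FF mean on CD and below it on HFD. For Abcd2 the genotypes stood apart mainly on CD, where its means were 2.34 RPKM in FF and 6.82 RPKM in LKO mice against 6.77 and 6.26 RPKM on HFD (-1.39, standard error 0.33, adjusted p = 0.0297 by limma). Crat had -1.52 (standard error 0.34, adjusted p = 0.0188 by limma), Ehhadh -1.11 (standard error 0.24, adjusted p = 0.0159 by limma) and Hsd17b4 -0.70 (standard error 0.16, adjusted p = 0.0273 by limma). For Hadh the interaction was -0.89 (standard error 0.16, adjusted p = 0.00372 by limma) and for Acadm -0.80 (standard error 0.16, adjusted p = 0.00968 by limma). Acadl passed the adjusted p at -0.52 (adjusted p = 0.0369 by limma), under the fold of 1.5, and its adjusted p reached 0.103 with mice left out. Cpt1a did not pass (-0.36, 95% interval -0.72 to -0.0039, adjusted p = 0.298 by limma).

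Pex11a, Hadh, Acaa1b, Acadm and Ehhadh kept their interaction call with each mouse left out. The other 3 crossed the threshold of the adjusted p when certain mice were left out, with differences close to those with all mice. Abcd2 lost its call without FF CD mouse 2 or 3, FF HFD mouse 2, LKO CD mouse 2 or 4 or LKO HFD mouse 5 (-1.34 to -1.27, adjusted p up to 0.0809 by limma). Hsd17b4 lost it without FF CD mouse 3 or 4, FF HFD mouse 2 or LKO CD mouse 2 or 4 (-0.67 to -0.63, adjusted p up to 0.077 by limma), and Crat without LKO CD mouse 2 or 4 (-1.44 to -1.39, adjusted p up to 0.0543 by limma). The count was 5 without LKO CD mouse 2 or 4 and 13 without LKO CD mouse 3, when Slc25a20, Eci1, Decr1, Etfdh and Ech1 (-0.77 to -0.57 with all mice, adjusted p = 0.0549 to 0.126 by limma) were called as well (-0.94 to -0.64).

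**Figure D4:**
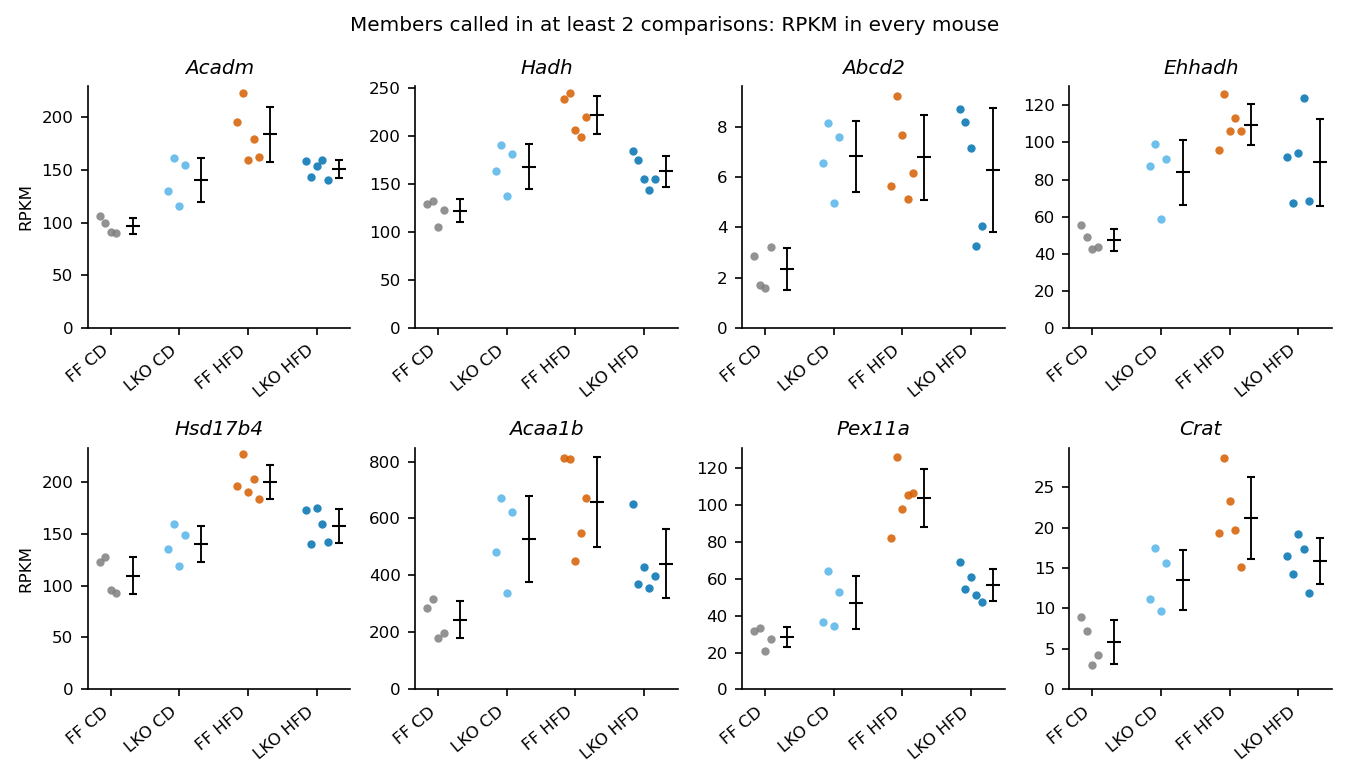
RPKM in every mouse for the 8 members called in at least 2 of the 5 comparisons, with group mean ± SD in black and axes from 0. For each gene the FF CD mean is the lowest, no FF HFD mouse overlaps the FF CD mice, and for Pex11a, Hadh and Hsd17b4 all LKO HFD mice lie below all FF HFD mice.

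**Figure D5:**
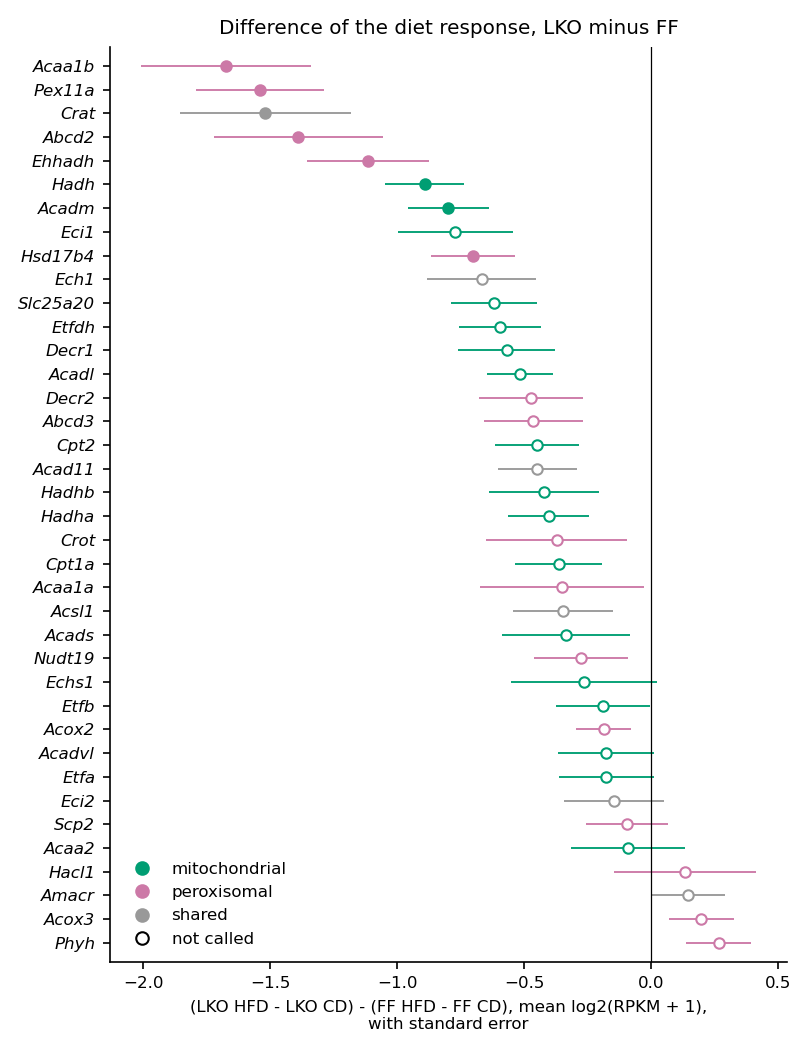
Interaction of diet and genotype, in mean log2(RPKM + 1) with standard errors, for the 38 members ordered by size and coloured by class, with called members filled. Acaa1b, Pex11a, Crat, Abcd2 and Ehhadh are the most negative, and 4 members are above 0.

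Members that move together may share letters in their promoters, so the 250 bases before the start of those called in at least 2 comparisons are shown, where RefSeq (GRCm38.p6) lists them and annotated exons take at most 30 bases of the window. PPARα and its partner RXR are known to bind a direct repeat of AGGTCA with 1 base between the copies. All 5 genes are on the minus strand, and the sequences are read along the gene, of Acadm (chr3:153944644-153944893), Hadh (chr3:131272102-131272351), Ehhadh (chr16:21787835-21788084), Acaa1b (chr9:119157094-119157343) and Pex11a (chr7:79743132-79743381), with AGGTCA on either strand in capitals. The RefSeq start of Ehhadh lies upstream of its GENCODE start, the bases after it were not found in a GENCODE transcript, and its strand is that of the RefSeq table.
Acadm: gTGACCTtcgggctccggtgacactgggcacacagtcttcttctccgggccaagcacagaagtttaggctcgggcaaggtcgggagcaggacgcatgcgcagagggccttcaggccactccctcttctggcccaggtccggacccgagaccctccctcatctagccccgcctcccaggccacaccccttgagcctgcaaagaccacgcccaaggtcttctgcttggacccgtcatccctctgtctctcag
Hadh: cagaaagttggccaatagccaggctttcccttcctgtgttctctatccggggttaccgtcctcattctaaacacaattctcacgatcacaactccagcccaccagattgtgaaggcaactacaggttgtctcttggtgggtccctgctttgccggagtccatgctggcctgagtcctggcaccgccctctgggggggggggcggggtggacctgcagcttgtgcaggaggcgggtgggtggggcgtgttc
Ehhadh: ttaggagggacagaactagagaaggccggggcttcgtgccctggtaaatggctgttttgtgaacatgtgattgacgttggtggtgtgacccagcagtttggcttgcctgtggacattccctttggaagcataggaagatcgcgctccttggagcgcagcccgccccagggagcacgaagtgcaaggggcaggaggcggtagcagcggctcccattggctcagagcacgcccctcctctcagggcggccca
Acaa1b: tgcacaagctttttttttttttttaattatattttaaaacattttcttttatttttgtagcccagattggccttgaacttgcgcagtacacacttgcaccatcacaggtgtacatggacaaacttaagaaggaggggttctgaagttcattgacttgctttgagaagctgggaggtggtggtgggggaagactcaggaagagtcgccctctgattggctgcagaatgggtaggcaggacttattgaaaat
Pex11a: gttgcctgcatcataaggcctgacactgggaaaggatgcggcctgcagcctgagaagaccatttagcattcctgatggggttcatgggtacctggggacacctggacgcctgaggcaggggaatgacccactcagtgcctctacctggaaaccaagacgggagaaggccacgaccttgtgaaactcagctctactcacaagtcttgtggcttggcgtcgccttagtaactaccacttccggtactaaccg
In these windows the capitals mark a single copy, in Acadm, with its first base 249 bases before the start, read on the opposite strand. At least 1 copy on either strand was found in 5 of 35 member promoters (14.3%), of 32 members with an entry, and in 14.0% of all 32851 promoters. The whole repeat with at most 2 mismatches on either strand was found in 3.24% of all promoters and in 2 of the 35 (5.71%), those of Echs1 (83 to 71 bases before the start) and Etfa (77 to 65 bases), neither of which was called in any comparison. These letters are a description of short windows, and enhancers and introns were not searched.

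Other genes of the pathways were followed as lists that do not include the members. Of 20 tested genes of mitochondrial oxidation beside the members, none was called lower in FF mice on HFD. Those called higher numbered 3 (15.0%, against 5.11% of all genes). They were Slc22a5, the carnitine transporter of the cell membrane (5.25 ± 0.529 to 15.0 ± 2.79 RPKM, n = 4 and 5, SD, log2 difference 1.34, adjusted p = 9.1e-05 by limma), the muscle-type gene Cpt1b (0.298 to 1.07 RPKM, 0.68, adjusted p = 0.00378 by limma) and Acad12 (1.21 to 2.69 RPKM, 0.74, adjusted p = 0.00321 by limma). The Cpt1b means of FF CD and LKO CD mice (0.432 RPKM) were under the filter of 0.5 RPKM. It was therefore tested only through its values on HFD, and its call adds no support. Slc22a5 was also called in LKO mice (7.06 to 11.9 RPKM, 0.69, adjusted p = 0.0418 by limma), and Acsl4, an acyl-CoA synthetase with a preference for arachidonic acid, was higher in LKO than in FF mice on HFD (10.6 to 16.6 RPKM, 0.61, adjusted p = 0.00811 by limma). Among 22 tested genes of peroxisomal metabolism beside the members, Nudt7, a peroxisomal hydrolase of CoA, had 215 RPKM in FF CD, 84.9 in FF HFD, 163 in LKO CD and 148 in LKO HFD mice. It was lower in FF mice on HFD (-1.37, adjusted p = 5.29e-05 by limma), higher in LKO than in FF mice on HFD (0.84, adjusted p = 0.00776 by limma) and had an interaction of 1.23 (adjusted p = 0.0102 by limma). The membrane protein gene Pxmp4 rose in FF mice by 0.64 (adjusted p = 0.00112 by limma).

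None of 15 peroxins, the genes of peroxisome assembly, was called in any comparison (limma). For diet in FF mice 7 had an unadjusted p under 0.05, against 3734 of 11090 genes. There 4 were higher by the adjusted p, with differences of 0.41 to 0.54, against 15.8% of all genes. An unadjusted p under 0.05 was reached by 1 for diet in LKO mice (22.3% of all genes) and 3 for genotype on CD (7.67%). On HFD 2 reached it for genotype (2145 of 11090 genes), and for the interaction 5 (1830 of 11090). Of 14 genes of PPARα, its partners and coactivators only Pparg was called. For diet in FF mice that was 7.14% of the list, against 6.60% of all genes. For the interaction it was 7.14%, against 2.44% of all genes. Pparg, a receptor of the same family that drives fat storage, was 2.35 ± 0.626 RPKM in FF CD, 6.96 ± 2.81 in LKO CD, 8.0 ± 2.20 in FF HFD and 5.29 ± 1.92 in LKO HFD mice (SD, n = 4, 4, 5 and 5), with a diet difference in FF mice of 1.41 (adjusted p = 0.000833 by limma) and an interaction of -1.72 (adjusted p = 0.0108 by limma). Ppara itself, named here after its values were seen, was 34.8 RPKM in FF CD and 49.2 RPKM in FF HFD mice, a log2 difference of 0.50 that passed the adjusted p (0.00539 by limma) but not the fold. In LKO mice Ppara was also higher on HFD, with 37.5 RPKM on CD and 46.5 RPKM on HFD, but did not pass the adjusted p.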

How the data were processed

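Liver RNA of 18 mice was sequenced, 1 library per mouse. The authors deposited RPKM values per gene and mouse, made, per the labels' processing notes, with HISAT2 2.0.4, Partek and the mm10 build. The annotation, strandedness and handling of shared reads are not given in the sources used here, and the labels name a small RNA kit beside a standard RNA-seq protocol. Depth was recovered from the steps between low values of single-exon genes. Groups came from the titles. Genes with a mean of at least 0.5 RPKM were fitted as log2(RPKM + 1) in 1 limma 3.58.1 model (R 4.3.3, trend on the mean) of the 4 groups, and p-values were adjusted over 11090 genes. Fold changes are on the log2(RPKM + 1) scale, which understates those of low genes. Positions are those of GENCODE (GRCm38). Python 3.11.15, pandas 2.3.3 and matplotlib 3.10.9 were used. The fit was tested on simulated data. Members and lists were chosen with earlier results of these data known. Members with an adjusted p under 0.05 were named with their differences, as were Cpt1a and Ehhadh throughout, and other pathway genes where called. Planned protein sequences were not used here. Alternatives were a pseudocount of 0.1, no filter or a mean of 1 RPKM, other scalings, only the groups compared, the replicate number as a block, other class limits and leaving out each mouse. The result of 1 other pathway gene is not reported here.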

Additional observations from a re-analysis of the deposited data

Results flagged for a closer look

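In 11 of 152 combinations of member and group, 1 mouse stood apart from the others of its group by Dixon's criterion, where chance gives about 1 in 20. LKO CD mouse 3 was lowest for Acadvl (106 RPKM), Acads (31.2 RPKM) and Acaa1a (29.7 RPKM). FF HFD mouse 3 was lowest for Abcd3 (177 RPKM), Decr2 (92.0 RPKM) and Amacr (30.4 RPKM), and FF HFD mouse 2 was highest for Acadl (151 RPKM). FF CD mouse 3 was lowest for Decr2 (59.1 RPKM) and FF CD mouse 4 for Etfa (145 RPKM). In LKO HFD mice, mouse 1 was highest for Acaa1b (652 RPKM) and mouse 5 lowest for Amacr (31.3 RPKM).

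The change with diet differed between FF and LKO mice for 9 members by the interaction in limma (adjusted p under 0.05). Pex11a (-1.54), Acaa1b (-1.68), Abcd2 (-1.39), Ehhadh (-1.11) and Hsd17b4 (-0.70) are peroxisomal, Hadh (-0.89), Acadm (-0.80) and Acadl (-0.52) mitochondrial, and Crat (-1.52) acts in both organelles.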

How the results depend on the processing

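When 1 mouse was left out, the number of members called was 16 to 22 for diet in FF mice, 0 to 1 for diet in LKO mice, 0 to 5 for genotype on CD, 1 for genotype on HFD and 5 to 13 for the interaction, and the median interaction of the peroxisomal members was -0.56 to -0.28, lowest without LKO CD mouse 3. All other class medians moved by less than the spread between mice under every alternative. By the adjusted p alone 1 member passed for diet in LKO mice and 2 for genotype on HFD. Rescaling each mouse to the same sum gave 1 call for diet in LKO mice (Crot), 3 for genotype on CD (Abcd2, Acaa1b and Crat) and 14 for the interaction, and without a filter no member was called for genotype on CD (Abcd2, adjusted p = 0.143 by limma) and 6 for the interaction (Abcd2 and Crat lost). Centring on the median gave 16 calls for diet in FF mice and 12 for the interaction. Across 25 pairs of mice with the same number, deviations from the group means correlated from -0.173 to 0.332, over 0.1 in 10, so the numbers were not taken to pair the mice, and 5 of the 18 mice deviated most like a mouse of their own number in another group. With the replicate number as a block 1 member (Crot, 0.71, adjusted p = 0.049 by limma) was called for diet in LKO mice, 22 for diet in FF mice and 12 for the interaction, and for genotype on CD Acaa1b (adjusted p = 0.0345 by limma) was called in place of Abcd2 (adjusted p = 0.0638 by limma). The block added Acadl, Hadha and Decr2 in FF mice and Slc25a20, Eci1, Etfdh and Ech1 for the interaction and changed no other call. Ehhadh in LKO mice turned from 0.078 to -0.018 when values were centred on the median, to -0.083 without LKO CD mouse 3 and to -0.049 without LKO HFD mouse 4, and reached 0.17 at most with a mouse left out. The cause of these changes was not tested. With 4 or 5 mice a group, a member that was not called may still differ within its interval, and the lowest member in a mouse rested on about 203 reads.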
